A study of Homo sapiens with 3 samples.

Results

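The ligands described here were 10 genes of the tumor necrosis factor (TNF) superfamily, namely TNF, LTA, LTB, TNFSF8, TNFSF9, TNFSF10, TNFSF13B, TNFSF14, TNFSF15, and FASLG. The list was made with earlier results of these data known. Its probes were taken by gene name only, as every non-control probe on the array that carried 1 of these names. This gave 12 probes of 58201 in all, and 10 gene names of 43317. TNFSF10 had 3 probes, and each of the others had 1. Each of the 12 probes was printed as 1 spot per array.

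TNF superfamily ligands are trimeric proteins made at the cell membrane, from which several are cut off to act in solution. They bind receptors of the TNF receptor superfamily, which recruit TRAF adaptors toward NF-κB and MAP kinase signaling or, where the receptor has a death domain, toward caspases. In macrophages, TNF is an early product of Toll-like receptor stimulation. TNF is also a cytokine of the psoriatic plaque and a target of antibodies used to treat it.

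RNA was taken from macrophages derived from THP-1, an established human line of monocytic leukemia cells. All cells had received the phorbol ester PMA at 100 ng/mL for 24 to 36 h to turn them into macrophages, and then stayed overnight in fresh medium. The Ctrl cells received no further agent, the IMQ cells received imiquimod, a Toll-like receptor 7 ligand, and the IMQ+DMD cells received DMD, a dimethoxy-methylbenzenediol of the fungus Antrodia cinnamomea, before imiquimod. The labels place all samples at 4 h. The labels mark the last sample IMQ+X, and it is called IMQ+DMD here because DMD is the only other compound the labels name. For THP-1 experiments in general, the study's methods give a longer incubation with IMQ than the labels do. Each condition had 1 one-color array (n = 1), so no test, no p-value, and no error between cultures could be given.

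Values are the authors' quantile-normalized fluorescence intensities in arbitrary units, and differences are on the log2 scale. The only error available is the technical standard deviation (SD) of a difference, taken from 300 probes that were each spotted 10 times on every array and matched on brightness. It covers the spot and not the culture, the extraction, or the labeling. The median SD between spots of a probe was 0.05 log2 units on the Ctrl and IMQ arrays and 0.04 on the IMQ+DMD array, and it widened to 0.30 among probes with log2 values between 4 and 5. A gene was called changed at 2-fold or more. Other treatments of the same intensities, among them no normalization, scaling on spiked-in control RNA, and normexp, a model-based background correction, are named beside the ligands whose sign they turn or whose call they end. By the marks of the scanner software, 72.0%, 66.6%, and 71.9% of the 58201 probes in Ctrl, IMQ, and IMQ+DMD, respectively, were well above background. Where a probe was dimmer than that, it took the floor of its array, the lowest intensity still well above background (16.5, 23.8, and 16.9, respectively), unless its own intensity was above this floor. In such bulk RNA, a lower value can come from fewer cells of a type or from less RNA per cell, and these cannot be told apart.

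The labels name the cells monocytes of peripheral blood. Of 10 macrophage and monocyte markers, 8 were found by name. All 8 were well above background in Ctrl and 7 in either treated sample, with summed intensities of 288635, 220534, and 198679. CSF1R, the receptor for macrophage colony-stimulating factor, was at 224896, 172912, and 153691. CD14, a co-receptor for lipopolysaccharide, was at 21875, 13399, and 9436. The sum, most of it from CSF1R, was thus highest on the Ctrl array. After IMQ, 7 of the 8 markers were below and 1 above their Ctrl value, with a median of -0.61. Of the 7 that could be compared between IMQ+DMD and IMQ, 5 were above 0 and 2, CSF1R and CD14, below it, with a median of 0.06. The 6 T cell markers summed to 1112, 991, and 1174, the 4 NK cell markers to 331, 546, and 444, and the 4 B cell markers to 4736, 3842, and 4571, of which CD79A alone gave 4148, 3424, and 4011. No list was at 0. The sum of the NK cell list was highest on the IMQ array, as TNF was, but it followed NCAM1 alone, which was higher by 3.08 log2 units after IMQ. Of the other NK cell markers, NCR1 was at -0.20 and KLRF1 at -0.45, and KLRD1 was not well above background on any array. The samples were of the THP-1 line, so these sums are readings of marker genes and no count of lymphocytes. Any link between them and the values of the ligands was not tested.

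The probes shown next read the 4 ligands that passed 2-fold in any comparison. Each probe has 60 bases, and its 30 bases at the 5′ end are shown in lower case. The TNF probe lies at chr6:31545837-31545896 on the plus strand and that of LTB at chr6:31548335-31548394 on the minus strand. The TNFSF8 probe lies at chr9:117666135-117666194 on the minus strand. The TNFSF10 probes, also on the minus strand, lie at chr3:172223866-172223925 (probe 1), chr3:172224226-172224285 (probe 2), and chr3:172235153-172235212 (probe 3). These positions come from the deposited scanner output and refer to build hg19. The exon or untranslated region under each probe was not assigned here.
TNF: ggggtatcctgggggacccaatgtaggagc
LTB: ggaaattgattttgaacctgatgaaaataa
TNFSF8: ttcaggaagaaagcgcctctctaccataca
TNFSF10 probe 1: gcaacaatccatctctcaagtagtgtatca
TNFSF10 probe 2: ctaactgacctggaaagaaaaagcaataac
TNFSF10 probe 3: tgtagctacattaacttgttaacctcccat

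The 250 bases before the transcription start are shown for TNF, LTB, and TNFSF10, because each passed 2-fold in a comparison and has an entry among the RefSeq promoters used here. In all, 9 of the 10 ligands had an entry, and TNFSF8 was the exception. The TNF window is chr6:31575315-31575564 on the plus strand, the LTB window chr6:31582426-31582675 on the minus strand, and the TNFSF10 window chr3:172523431-172523680 on the minus strand, in build GRCh38.p14. Capitals mark matches to the NF-κB consensus, searched on both strands by the letters of its usual degenerate form, and to TATAAA on the strand of the gene.
TNF: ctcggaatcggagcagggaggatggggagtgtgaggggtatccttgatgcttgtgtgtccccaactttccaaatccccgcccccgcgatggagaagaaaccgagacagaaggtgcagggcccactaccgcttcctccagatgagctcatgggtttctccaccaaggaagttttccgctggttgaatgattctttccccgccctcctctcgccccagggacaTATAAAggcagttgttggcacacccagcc
LTB: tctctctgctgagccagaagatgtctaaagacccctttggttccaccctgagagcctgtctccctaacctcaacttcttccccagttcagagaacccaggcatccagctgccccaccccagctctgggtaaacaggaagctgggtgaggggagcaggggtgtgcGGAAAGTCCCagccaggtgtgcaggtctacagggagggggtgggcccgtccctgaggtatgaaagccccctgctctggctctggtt
TNFSF10: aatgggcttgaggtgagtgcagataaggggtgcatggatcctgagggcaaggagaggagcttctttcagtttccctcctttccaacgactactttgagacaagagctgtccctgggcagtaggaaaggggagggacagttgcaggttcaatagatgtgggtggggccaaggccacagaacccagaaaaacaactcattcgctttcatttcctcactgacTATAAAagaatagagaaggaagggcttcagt

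TATAAA began 29 bases before the start in the TNF window and 31 bases before it in the TNFSF10 window. An NF-κB match began 86 bases before the start in the LTB window. The same letters were absent from these 250 bases of TNF and TNFSF10. Over 35116 promoter windows of this length, 9.96% held an NF-κB match, 6.80% held TATAAA on the strand of the gene, and 6.57% held the AP-1 motif TGANTCA on either strand. Of the 9 ligands with an entry, 3 had an NF-κB match, 4 had TATAAA, and 2 had TGANTCA in at least 1 window. A match describes the letters of the window and is no measurement of a bound factor. Likewise, the lack of a match to these letters does not show that NF-κB does not bind in a window.

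Imiquimod was set against the control to ask which ligands differed after Toll-like receptor 7 stimulation. TNF was 11.0-fold higher, and TNFSF10, which codes for the death ligand TRAIL, was 2.03-fold lower. Of the other 8 ligands, 7 stayed within 2-fold, among them LTB, just inside the threshold, and FASLG had only a bound, at least 1.42-fold lower, so that it could not be placed on either side of 2-fold. So 1 of 10 ligands was called higher, where 4.17% of the 31851 genes compared were, and 1 of 10 was called lower, where 3.59% were. The median difference of the ligands was -0.20, against -0.02 for all genes. TNFSF10, LTA, LTB, TNFSF8, TNFSF13B, TNFSF15, and FASLG gave values below 0 and TNF, TNFSF9, and TNFSF14 above 0, although with no normalization TNFSF14 turned to -0.25 and with spike-in scaling TNFSF14 turned to -0.43 and TNFSF9 to -0.11. Both settings lowered the median of all genes too, to -0.51 and -0.69. Relative to that median TNFSF14 stood at 0.26 and TNFSF9 at 0.59 under either setting.

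**Figure D1:**
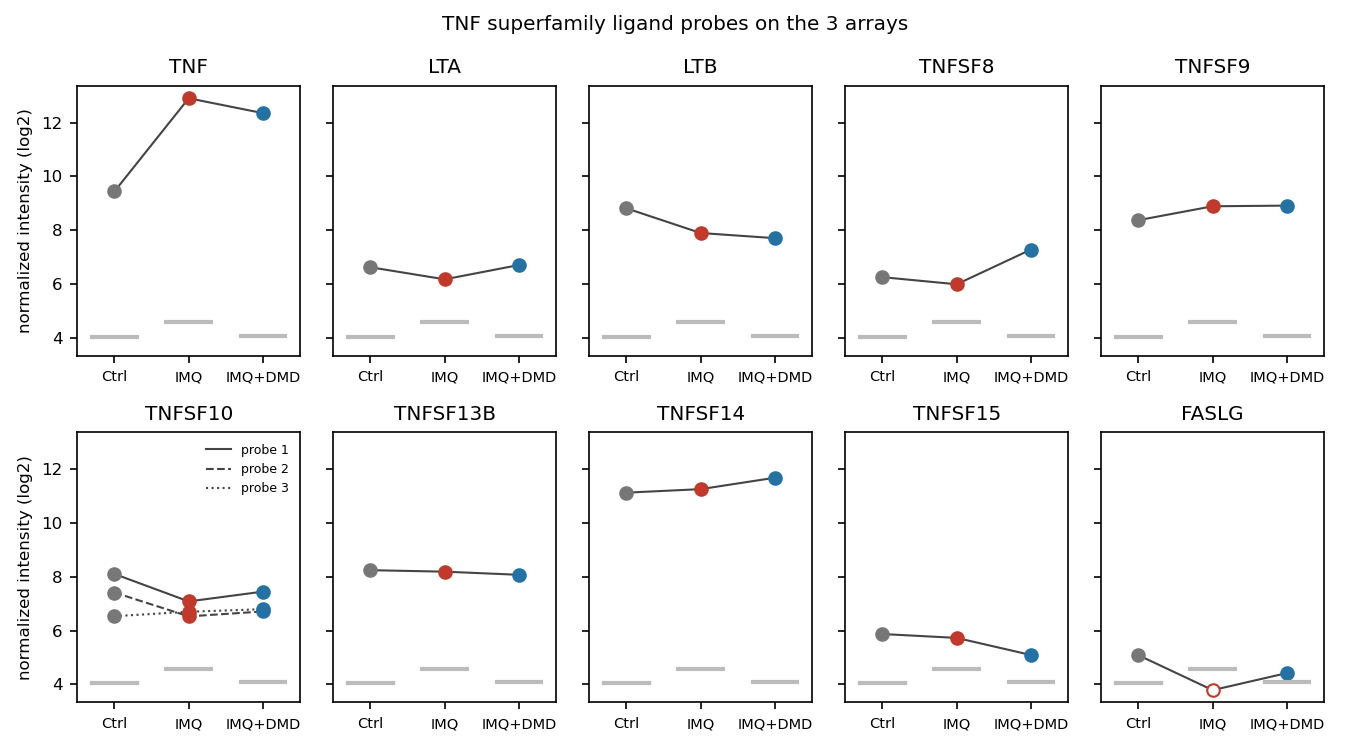
Normalized intensity (log2 scale, arbitrary units) of each probe of the 10 ligands on the Ctrl, IMQ, and IMQ+DMD arrays, with 1 point per array (n = 1), a grey bar at the lowest value well above background on each array, and a hollow point where a probe was not well above background. TNF went from 695 in Ctrl to 7666 after IMQ and 5227 after IMQ+DMD, while FASLG on the IMQ array was the only hollow point. Levels are not to be compared between probes.

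IMQ+DMD was set against IMQ to ask which ligands differed when DMD had been given before the stimulus. TNFSF8, the ligand of CD30, was 2.45-fold higher with DMD, and no ligand was 2-fold lower. TNF was lower by 0.55 log2 units, short of 2-fold. So 1 of the 9 ligands that could be compared was called higher, where 1.19% of the 31701 genes compared were, and 0 were called lower, where 1.25% were. The median of the ligands was 0.02, against 0.00 for all genes. FASLG was left out of this comparison because its lowest readable value on the IMQ array, where it was not well above background, lay above its value on the IMQ+DMD array.

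IMQ+DMD was set against Ctrl to ask which ligands were away from the untreated level when both compounds were present. TNF was 7.52-fold and TNFSF8 2.04-fold higher, and LTB was 2.16-fold lower. So 2 of 10 ligands were called higher, where 3.04% of 33707 genes were, and 1 of 10 was called lower, where 4.83% were. The ligands had a median of -0.04 and all genes one of 0.05. Every comparison shares an array with each of the others, so they are not independent of one another.

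**Figure D2:**
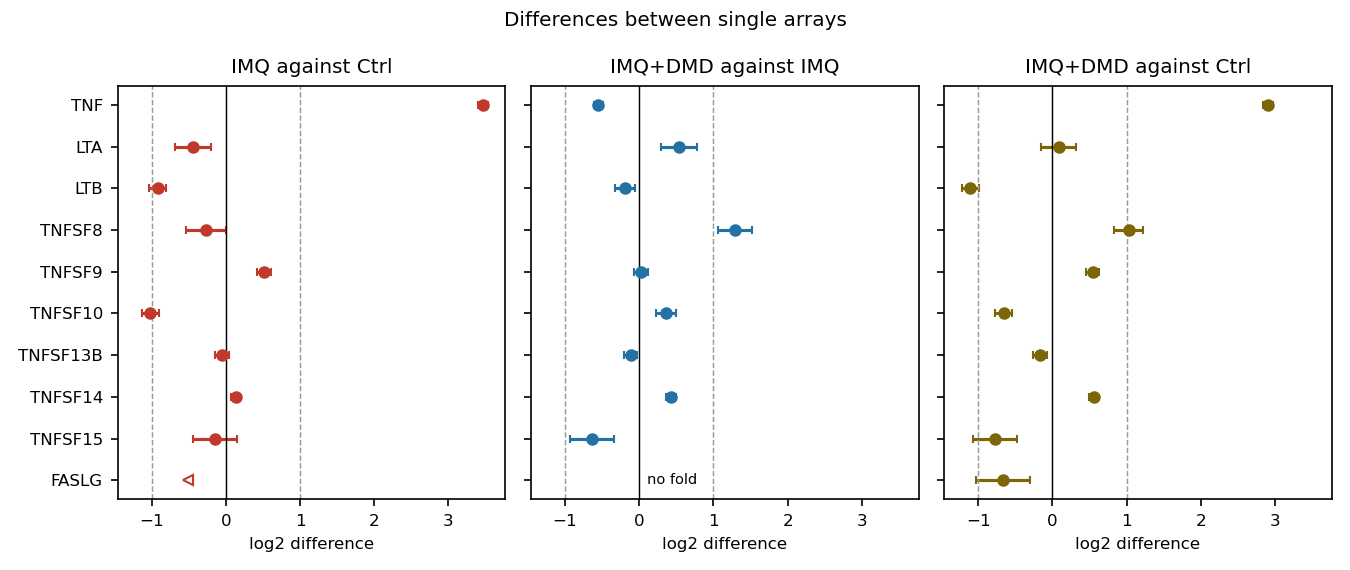
Difference of log2 normalized intensity for each ligand in the 3 comparisons, with an open arrow where the value is a bound (FASLG, IMQ against Ctrl), bars for the technical SD of a difference between single spots (not of cultures) and lines at 2-fold. TNF stands at 3.46 for IMQ against Ctrl, -0.55 for IMQ+DMD against IMQ, and 2.91 for IMQ+DMD against Ctrl. Among the other genes TNFSF8 crosses a 2-fold line at 1.29 for IMQ+DMD against IMQ and at 1.03 for IMQ+DMD against Ctrl. TNFSF10 crosses one at -1.02 for IMQ against Ctrl, and LTB at -1.11 for IMQ+DMD against Ctrl.

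TNF and the lymphotoxins lie beside each other on chromosome 6 in the major histocompatibility complex. TNF codes for the secreted and membrane-bound cytokine that binds TNFR1 and TNFR2. Its intensity was 695 in Ctrl, 7666 with IMQ, and 5227 with IMQ+DMD. Both IMQ arrays were far above the control, and the array with DMD was the lower of the pair. The difference between IMQ and Ctrl was 3.46 log2 units (technical SD 0.07), place 64 from the top among 31851 genes. With DMD it was 0.55 log2 units below IMQ (technical SD 0.06), or 31.8% lower in intensity. The level with DMD was 2.91 log2 units above Ctrl (technical SD 0.07), so 84.0% of the rise after IMQ remained on the log2 scale and 65.0% on the linear scale.

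LTA codes for lymphotoxin alpha, a secreted homotrimer that shares the receptors of TNF. Its intensity was 98.6 in Ctrl, 72.2 with IMQ, and 104 with IMQ+DMD. The IMQ array was the lowest, by 0.45 log2 units against Ctrl (technical SD 0.24) and by 0.53 against IMQ+DMD (technical SD 0.24). Both gaps were about 2 technical SDs wide. IMQ+DMD stood 0.08 above Ctrl, less than 1 technical SD, and this difference turned to -0.23 with no normalization and to -0.19 with spike-in scaling, which is 0.09 relative to the median of all genes in both cases.

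LTB codes for lymphotoxin beta, which anchors lymphotoxin alpha in the membrane and binds the lymphotoxin beta receptor. Its intensity was 450 in Ctrl, 238 with IMQ, and 209 with IMQ+DMD. Both treated arrays lay below the control. LTB was at -0.92 for IMQ against Ctrl (technical SD 0.11), just short of 2-fold, and at -1.11 for IMQ+DMD against Ctrl (technical SD 0.11). Between the treated arrays the difference was -0.19 (technical SD 0.13), which turned to 0.19 with spike-in scaling (-0.10 relative to the median of all genes). LTB and TNF, which neighbor each other, thus stood on opposite sides of the control. LTB passed 2-fold for IMQ against Ctrl with no normalization (-1.42) and spike-in scaling (-1.60), and for IMQ+DMD against Ctrl it was short of it with normexp (-0.89).

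TNFSF8, TNFSF9, TNFSF14, and TNFSF15 are known as costimulatory ligands for lymphocytes. TNFSF8 codes for the CD30 ligand, and its intensity was 76.4 in Ctrl, 63.6 with IMQ, and 156 with IMQ+DMD. The array with DMD was the highest, while Ctrl and IMQ were close, with a difference of -0.26 that is within 1 technical SD of 0.27. With DMD, TNFSF8 was higher by 1.29 log2 units against IMQ (technical SD 0.23), place 104 from the top among 31701 genes, and by 1.03 against Ctrl (technical SD 0.20). This was the largest difference between IMQ+DMD and IMQ among the 9 ligands compared, but it came from a dim spot and was 0.77, short of 2-fold, with normexp. Against Ctrl the difference of TNFSF8 was short of 2-fold with no normalization (0.68), spike-in scaling (0.73), and normexp (0.63). Relative to the median of all genes, it was 1.01 with no normalization and with spike-in scaling, and 0.98 with quantile normalization.

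TNFSF9 codes for the 4-1BB ligand. Its intensity was 332 in Ctrl, 474 with IMQ, and 482 with IMQ+DMD. Both treated arrays were above the control, by 0.52 and 0.54 log2 units (technical SD 0.09 each), and they differed from each other by 0.02, less than 1 technical SD. With spike-in scaling the difference between IMQ and Ctrl turned to -0.11, and that between IMQ+DMD and Ctrl was 0.18. Relative to the median of all genes these were 0.59 and 0.46.

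TNFSF14 codes for LIGHT, a ligand of the herpesvirus entry mediator and of the lymphotoxin beta receptor. Its intensity was 2232 in Ctrl, 2444 with IMQ, and 3280 with IMQ+DMD. The array with DMD was the highest, by 0.42 log2 units against IMQ and 0.56 against Ctrl (technical SD 0.06 each). The difference against Ctrl was 0.06 with no normalization and 0.10 with spike-in scaling, or 0.38 relative to the median of all genes in both cases. IMQ was 0.13 above Ctrl, and the scalings under which this sign turned are given above.

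TNFSF15 codes for TL1A, the ligand of death receptor 3. Its intensity was 58.5 in Ctrl, 52.9 with IMQ, and 34.1 with IMQ+DMD. The array with DMD was the lowest. IMQ differed from Ctrl by -0.14, within 1 technical SD of 0.30, whereas IMQ+DMD was at -0.64 against IMQ and at -0.78 against Ctrl (technical SD 0.30 each). Against IMQ it was nearer to 0 with normexp (-0.33), the 75th percentile (-0.30), no normalization (-0.27), and spike-in scaling (-0.05). Relative to the median of all genes, it was -0.34 with the 75th percentile, with no normalization, and with spike-in scaling.

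TNFSF13B codes for BAFF, a survival factor for B cells that myeloid cells make. Its intensity was 303 in Ctrl, 292 with IMQ, and 269 with IMQ+DMD. The 3 arrays were close to each other, with differences of -0.06, -0.12, and -0.17 for IMQ against Ctrl, IMQ+DMD against IMQ, and IMQ+DMD against Ctrl (technical SD 0.09 each). With spike-in scaling the difference between the treated arrays turned to 0.22, or -0.07 relative to the median of all genes.

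TNFSF10 and FASLG code for TRAIL and the Fas ligand, both of which bind receptors that carry death domains. TNFSF10 was read from probe 1, the brightest of its 3 probes, which had an intensity of 275 in Ctrl, 135 with IMQ, and 174 with IMQ+DMD. Probe 2 was at 170, 92.2, and 105. The control was the highest array for both, and the differences between IMQ and Ctrl were -1.02 (technical SD 0.11) for probe 1 and -0.89 (technical SD 0.20) for probe 2. Probe 3, placed by the array's design on a transcript variant of its own and nearer to the 5′ end of the gene, was at 92.6, 104, and 111, with a difference of 0.16 (technical SD 0.24). So the probes of TNFSF10 did not all point one way, and the lower call rested on probe 1, since the mean of the probes was -0.58. With normexp probe 1 was at -0.77, also short of 2-fold. Between IMQ+DMD and IMQ, the 3 probes differed by 0.36, 0.18, and 0.10, and between IMQ+DMD and Ctrl by -0.66, -0.70, and 0.26.

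FASLG was the only ligand that was not well above background on every array. Its intensity was 33.9 in Ctrl, 13.8 after IMQ, where it was not well above background, and 21.4 after IMQ+DMD. The control was the highest array, and with quantile normalization FASLG was at least 1.42-fold lower after IMQ. This bound is -0.51 log2 units (technical SD 0.36), and with normexp the value was -0.31. IMQ+DMD was lower than Ctrl by 0.66 log2 units (technical SD 0.36), under 2 technical SDs.

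The genes whose 3 log2 values, each centered on its own mean, lay nearest to those of TNF were SNAP25 at a distance of 0.05, LRRC32 at 0.08, TBX2 at 0.09, GNG4 at 0.11, and SYTL3 at 0.16. They were found among 29337 genes well above background on all 3 arrays. A distance over 3 arrays describes these arrays only.

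The remaining parts of the pathway were read from lists of named genes. For IMQ against Ctrl, 4.17% of all genes were called higher and 3.59% lower. The shares were 1.19% and 1.25% for IMQ+DMD against IMQ, and 3.04% and 4.83% for IMQ+DMD against Ctrl. Of the 8 other ligands of the superfamily, 7 could be compared and none passed 2-fold after IMQ, with a median of -0.63. This median was -0.33 with normexp and -0.01 with the mean of the probes, and its gene, TNFSF12, had another probe at 0.85. CD70, the ligand of CD27, was picked out after its values were seen. It was at 4156 in Ctrl, 6495 with IMQ, and 3899 with IMQ+DMD, so the array with IMQ alone was the highest. TNFSF11, which codes for RANKL, the ligand that drives osteoclast formation, was the only 1 of the 7 past 2-fold in any comparison. It was at -1.62 for IMQ+DMD against Ctrl (technical SD 0.34). Its spot was dim, with 74.6 in Ctrl and 24.3 with IMQ+DMD, and the difference was short of 2-fold with normexp (-0.61).

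Of 27 receptors compared, 5 were called higher after IMQ (against 4.17% of all genes) and 0 lower (against 3.59%), with a median of 0.04. They were TNFRSF1B, the second receptor of TNF, at 1.87, CD40 at 1.87, TNFRSF9, the receptor of TNFSF9, at 1.79, TNFRSF18, which codes for GITR, at 1.77, and TNFRSF10D, a decoy receptor of TRAIL, at 1.28. The same 5 receptors were called higher for IMQ+DMD against Ctrl, where 3.04% of all genes were. For IMQ+DMD against IMQ, 1.19% of all genes were called higher and 1.25% lower. The only receptor past 2-fold there was TNFRSF11A, which codes for RANK, the receptor of RANKL, at -1.04 (technical SD 0.36). Its spot was dim, with 73.7 in Ctrl, 50.0 with IMQ, and 24.4 with IMQ+DMD, and the difference was short of 2-fold with the 75th percentile (-0.67), no normalization (-0.65), spike-in scaling (-0.43), and normexp (-0.31). After IMQ+DMD, 3 of the 27 receptors were called lower than Ctrl, where 4.83% of all genes were. These were TNFRSF11A at -1.60, TNFRSF21, a death receptor, at -1.13, and TNFRSF10C, another decoy receptor of TRAIL, at -1.08. With normexp TNFRSF11A was at -0.55 and TNFRSF10C at -0.89 against Ctrl, and TNFRSF18 at 0.67, all short of 2-fold. TNFRSF10C was also short of it with the 75th percentile (-0.98).

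Of 20 adaptors and signaling genes, 2 were called higher after IMQ (against 4.17% of all genes), with a list median of 0.23. BIRC3, an inhibitor of apoptosis that TRAF2 recruits to receptors, was at 4.42 and TRAF1, an adaptor, at 2.61. CFLAR, an inhibitor of caspase-8 activation, had probes that disagreed: the one that stood for the gene gave 0.36, whereas its others gave 2.13 to 2.25. CFLAR was picked out after these values were seen. None of the 20 passed 2-fold between IMQ+DMD and IMQ, where 1.19% of all genes were called higher and 1.25% lower.

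Of 15 NF-κB subunits and feedback genes, 10 were called higher after IMQ (against 4.17% of all genes) and 0 lower (against 3.59%). The list median was 1.54. Among those measured on both arrays, the largest differences were those of NFKBIA, the inhibitor that holds NF-κB in the cytoplasm, at 3.54, of the subunit REL at 2.57, and of NFKBIZ, a nuclear co-regulator, at 2.44. TNIP3 was not well above background on the Ctrl array and was at least 5.11-fold higher, and TNIP1, which like TNIP3 binds the deubiquitinase A20, was at 2.12. None of the 15 passed 2-fold between IMQ+DMD and IMQ, where 1.19% of all genes were called higher and 1.25% lower. The list median there was -0.14.

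Of 8 shedding genes, TIMP3, an inhibitor of the TNF-releasing protease ADAM17, was called higher after IMQ at 1.17, and ADAM17 itself was at 0.03. Of 7 genes of mRNA decay and translation, ZC3H12A, an RNase that degrades cytokine mRNAs, was at 2.77 and ZFP36, which binds AU-rich elements of TNF mRNA, at 1.32. Of all genes, 4.17% were called higher after IMQ. Neither list had a gene past 2-fold between IMQ+DMD and IMQ, with medians of -0.01 for both. For IMQ+DMD against Ctrl, where 3.04% of all genes were called higher, ZC3H12A and ZFP36 were too, at 2.62 and 1.21, whereas no shedding gene was.

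**Figure D3:**
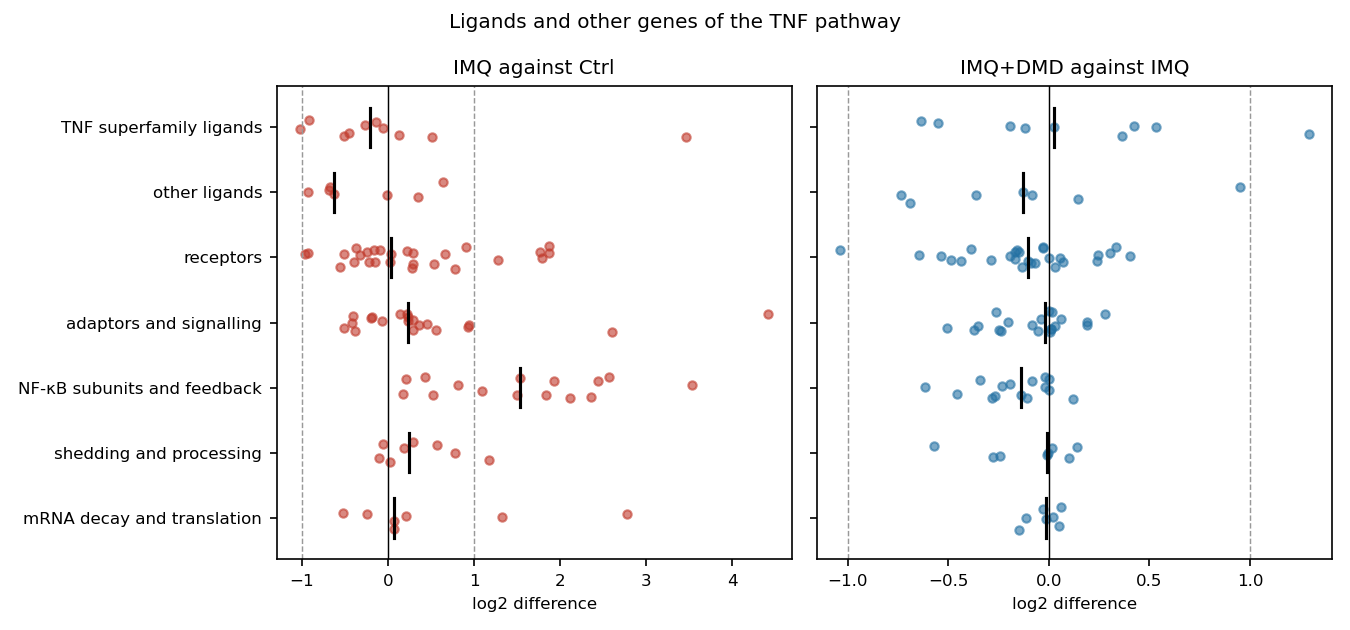
Difference of log2 normalized intensity of each gene in the ligand set and in 6 further lists of the pathway for IMQ against Ctrl and IMQ+DMD against IMQ, with 1 point per gene, a bar at each list's median, and lines at 2-fold. For IMQ against Ctrl, the 15 NF-κB subunits and feedback genes have a median of 1.54 and the 10 ligands one of -0.20, while for IMQ+DMD against IMQ the list medians lie between -0.14 and 0.02, and with spike-in scaling, which puts the median of all genes at 0.29, all of them are above 0 (0.08 to 0.39).

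With no normalization or with scaling on the 8 spike-in probes used, TNF stood at 3.62 and 3.63 relative to the median of all genes for IMQ against Ctrl, LTB at -0.91 in both cases, and TNFSF10 at -1.07 and -1.06. The list medians relative to it were 1.69 for the NF-κB subunits and feedback genes in both cases, 0.35 for the adaptors, 0.34 and 0.35 for the shedding genes, 0.20 and 0.21 for the mRNA decay genes, and 0.08 for the receptors. These 5 were above the median of all genes, although without this reference only the NF-κB list stayed above 0. The ligand set and the list of other ligands went the other way. Relative to the median of all genes, their medians were -0.32 and -0.71, respectively, in both cases. Of the 20 list genes called higher after IMQ, some lost the call by values that were not set against the median of all genes. These were TNFRSF10D, TNIP2, TIMP3, and ZFP36 under both settings, NFKB1 and NFKB2 with spike-in scaling only, and TNIP3, with 0.94, under normexp. The median of all genes was itself at -0.51 with no normalization and at -0.69 with spike-in scaling.

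**Figure D4:**
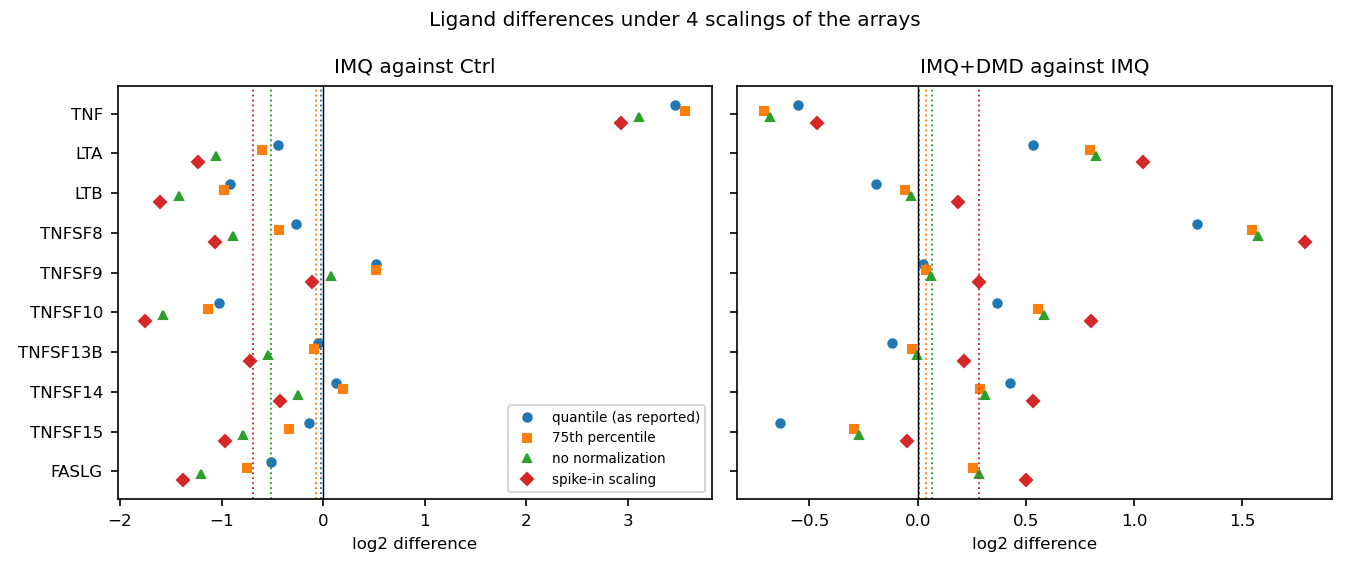
Difference of log2 intensity of each ligand for IMQ against Ctrl and IMQ+DMD against IMQ under 4 scalings of the arrays, with dotted lines at the median of all genes under each scaling. FASLG has no quantile-normalized point for IMQ+DMD against IMQ. TNF stays between 2.93 and 3.56 for IMQ against Ctrl, whereas TNFSF9 and TNFSF14 lie on both sides of 0 there but above the dotted line of each scaling.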

How the data were processed

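RNA of 3 samples of THP-1 macrophages (Ctrl, IMQ, and IMQ+DMD, 1 array each) was read on one-color Agilent arrays. The authors deposited scanner output (Feature Extraction 10.5.1.1) and a table of raw and quantile-normalized intensity per probe. The raw intensity was within 0.1% of the scanner output for all 57901 probes with a single spot. No column of sample values in that table was left unused (0 unmapped columns), and the detection marks of the scanner output were used.

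The normalized intensity was converted to log2. Control spots were left out. A probe was compared where its brighter array was well above background, and the probe of highest mean log2 value stood for its gene. The members, lists, and thresholds were chosen with earlier results of these data known. All members are named, with up to 5 genes of each other list past 2-fold in each direction and the 5 genes nearest to TNF. Only differences between single arrays were taken, with no test. Precision is limited by the number of arrays. The scripts were tested on simulated data. Alternatives used limma 3.58.1 in R 4.3.3, and other steps Python 3.11.15 (numpy 2.4.6, matplotlib 3.10.9, pandas 2.3.3). Promoters came from RefSeq (GRCh38.p14). No protein sequences were used here.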

Additional observations from a re-analysis of the deposited data

How the results depend on the processing

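Each comparison was recomputed under 11 alternatives, and no difference of a ligand past 2-fold turned its sign. TNF was the only ligand called higher for IMQ against Ctrl under all of them, with 2.93 to 3.56 log2 units. It stayed at -0.71 to -0.46 for IMQ+DMD against IMQ and at 2.43 to 2.91 for IMQ+DMD against Ctrl, and TNFSF8 at 0.77 to 1.79 for IMQ+DMD against IMQ.

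The single ligand called lower for IMQ against Ctrl became 2 at 1.5-fold and with no floor. It became 0 at 4-fold, with the mean of the probes, and with normexp, 4 with no normalization, and 5 with spike-in scaling. Over all genes, 10.6% were called lower at 1.5-fold, 6.52% with no floor, 15.6% with no normalization, and 24.9% with spike-in scaling. The share was 0.35% at 4-fold, 3.33% with the mean of the probes, and 1.86% with normexp. Between IMQ+DMD and Ctrl, the 2 called higher became 1 at 4-fold, with normexp, with spike-in scaling, and with no normalization. Of all genes, 0.62%, 1.56%, 1.64%, and 1.53% were called higher, in the same order. The 1 called lower became 4 at 1.5-fold, 0 at 4-fold and with normexp, and 2 with spike-in scaling and with no normalization. The shares of all genes called lower were 11.5%, 0.65%, 2.41%, 9.25%, and 10.2%, in the same order. Between IMQ+DMD and IMQ, the 1 called higher became 0 at 4-fold and with normexp and 2 with spike-in scaling. Of all genes, 0.02%, 0.06%, and 8.89% were called higher, in the same order. The 0 called lower became 1 at 1.5-fold, where 5.45% of all genes were called lower.

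Over the 6 other lists, 20 of the 84 genes compared were called higher for IMQ against Ctrl, where 4.17% of all genes were. They became 8 at 4-fold, where 0.91% of all genes were. The 0 called lower became 6 at 1.5-fold, 1 with the 75th percentile or no floor, 7 with no normalization, and 17 with spike-in scaling. Of all genes, 4.53% were called lower with the 75th percentile, and the other shares are given above. Between IMQ+DMD and Ctrl, the 19 called higher became 8 at 4-fold, and the 4 called lower became 10 at 1.5-fold and with no normalization, 0 at 4-fold, 1 with normexp, and 9 with spike-in scaling. Between IMQ+DMD and IMQ, the 0 called higher became 1 at 1.5-fold and with the 75th percentile, no floor, no normalization, or spike-in scaling, and the 1 called lower became 5 at 1.5-fold and 0 at 4-fold and with the 75th percentile, no normalization, normexp, or spike-in scaling. The cause was not tested.

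Spike-in scaling moved the median of all genes to 0.29 for IMQ+DMD against IMQ and to -0.28 for IMQ+DMD against Ctrl, where no normalization gave -0.32. Over all genes for IMQ against Ctrl, 1329 were called higher and 1143 lower, against 579 and 5156 with no normalization, 451 and 8173 with spike-in scaling, and 289 and 112 at 4-fold. For IMQ+DMD against IMQ the 376 higher and 396 lower became 1234 and 194 with the 75th percentile, 1370 and 180 with no normalization, 2916 and 100 with spike-in scaling, 19 and 29 with normexp, and 7 and 34 at 4-fold. For IMQ+DMD against Ctrl the 1026 and 1627 became 512 and 3401 with no normalization and 550 and 3104 when scaled on spike-ins. No paired analysis was possible because each group has 1 array, so the groups share fewer than 2 replicate numbers. Leaving out a replicate could not be done for the same reason. FASLG was near background, and for IMQ+DMD against IMQ it had a value under 5 alternatives only, between 0.10 and 0.64.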
